A study of Mus musculus with 4 samples.

Results

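Fatty acid oxidation was represented by 10 genes chosen by name from the 32285 genes of the tables, and all 10 were found and measured. They cover the carnitine shuttle that carries long-chain fatty acids into mitochondria (Cpt1a, Slc25a20, Cpt2), the acyl-CoA dehydrogenases of the first step (Acadvl, Acadl, Acadm), the 2 subunits of the mitochondrial trifunctional protein (Hadha, Hadhb), a subunit of the electron carrier behind the dehydrogenases (Etfa) and a transcriptional coactivator (Ppargc1b). The cells were myeloid-derived suppressor cells (MDSCs), made in vitro by growing bone marrow of C57BL/6-background mice for 4 days with IL-6 and GM-CSF at 40 ng/mL each, then sorted as live CD11b+ cells. Per the study's methods, the mice were 6 to 10 weeks old, and the number of animals behind each culture is not given in the sources used here. WT cells were cultured without the pan-β-adrenergic agonist isoproterenol (WT+PBS) or with it at 10 µM (WT+ISO), with 1 single-cell RNA library each. There were 2 further libraries of the series, from β2-adrenergic receptor knockout cells without and with isoproterenol. They are compared in no treatment result here and entered the clustering and the comparisons between clusters.

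In β-oxidation, a fatty acid is joined to coenzyme A, handed to carnitine by Cpt1 on the outer mitochondrial membrane, exchanged across the inner membrane by the carrier Slc25a20, and returned to coenzyme A by Cpt2. The acyl-CoA dehydrogenases then remove electrons, which Etfa and its partner Etfb pass on towards the respiratory chain, and the trifunctional protein carries out the remaining steps for long chains. Ppargc1b encodes PGC-1β, a coactivator of nuclear receptors known for raising mitochondrial and oxidative genes. β-Adrenergic signalling is best known for driving fat use in fat and muscle tissue, and mature neutrophils are known for relying mainly on glycolysis, whereas macrophages can oxidise fatty acids. The question put to these data was whether the transcripts of the pathway differed with ISO in WT cells and among the cell types of the culture.

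The 4 libraries held 9525 barcodes, of which 9303 were kept as cells (2039 to 2790 per library), with 19357824 to 29400468 UMIs (unique molecular identifiers, each counting 1 captured transcript) per library and a median of 7484 to 10252 UMIs per cell. No barcode was shared between libraries. Levels are given as CPM (UMIs of the gene divided by all UMIs and multiplied by 1000000) of a library or of the cells of one cluster in a library. Intervals are 95% exact intervals that cover counting error only, and since each group had 1 library there was no replicate check of any ISO difference and no p-value was computed for one. The sorting marker Itgam (CD11b) was at 290.0 to 363 CPM and was detected in 85.2% to 88.4% of the cells of each library.

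In whole libraries, the summed level of the 10 genes differed little with ISO. The sum was 377 CPM in WT+PBS (9200 UMIs) and 370 in WT+ISO (10869 UMIs). The log2 ratio of ISO over PBS was -0.03 (interval -0.07 to 0.01) and turned to 0.01 or 0.02 when the libraries were scaled without the 20 most abundant genes or by median-of-ratios size factors. For counting error alone, the interval included 0 and left out any change as large as 1.2-fold. It does not cover the spread between cultures, which was not measured. Acadl held 23.9% and Etfa 20.9% of the UMIs of the 10 genes, so the sum weighs these 2 most. The median log2 ratio of the 10 genes with ISO was 0.003. Among the 10 genes, 0 were over 1.2-fold higher with ISO, where 8.14% of 10754 tested genes were, and 1, Ppargc1b, was over 1.2-fold lower, where 17.4% of genes were. Other scalings of the libraries moved that split of all genes to 10.9% higher and 14.6% lower (without the abundant genes) or 11.5% and 14.2% (size factors), and holding the clusters at fixed weights gave 8.59% and 8.32%. The median log2 ratio of all tested genes was -0.02.

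**Figure D1:**
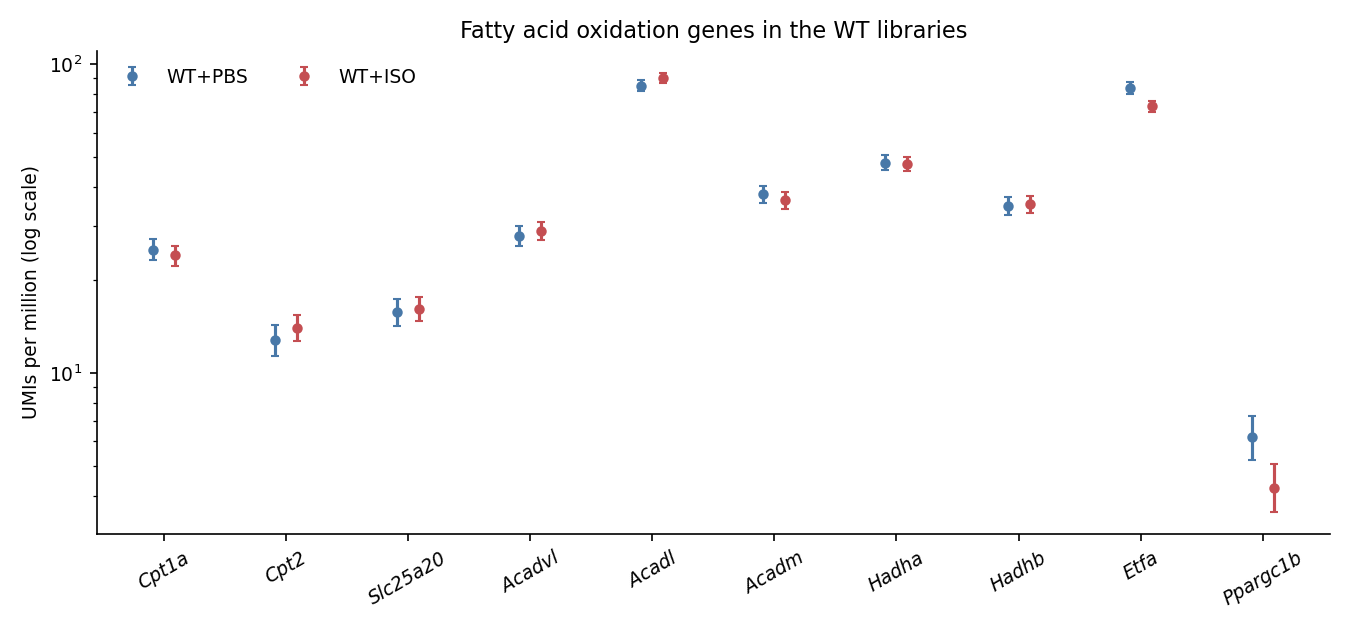
Level of each of the 10 genes (UMIs per 1000000, log axis) in WT+PBS and WT+ISO, with 1 point per library and 95% counting intervals as bars. Etfa and Ppargc1b are lower in WT+ISO by the widest margins, and the other points lie close together.

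The genes of the carnitine shuttle kept close levels with and without ISO. Cpt1a, the step at which entry of long-chain fatty acids is mainly controlled, was at 25.1 CPM without ISO (WT+PBS) and 24.0 with it, at a log2 ratio of -0.06 (-0.22 to 0.10). Cpt2 was at 12.7 and 14.0 CPM, and its ratio of 0.14 had an interval from -0.08 to 0.35. Slc25a20 was at 15.7 and 16.2 CPM, a ratio of 0.04 (-0.16 to 0.24). For all 3 the counting intervals included 0.

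Among the dehydrogenases, which act in turn on very long (Acadvl), long (Acadl) and medium (Acadm) chains, the differences were again small. Acadl was at 85.3 CPM in WT+PBS and 90.3 in WT+ISO, a log2 ratio of 0.08 whose interval just left out 0 (0.00 to 0.17). Acadm was at 37.9 and 36.2 CPM, a ratio of -0.07 (-0.20 to 0.06). Acadvl was at 27.8 and 28.9 CPM, a ratio of 0.06 (-0.09 to 0.20). Within the clusters of cells described below, Acadl was higher with ISO in the mature neutrophil-like cluster (0.40, 0.10 to 0.71) and Acadm in the macrophage-like cluster (0.32, 0.03 to 0.62), and the intervals of these 3 genes in the other clusters included 0. Such intervals, here and below, were taken for every member in every cluster and were not adjusted for their number.

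Hadha and Hadhb encode the α and β subunits of the trifunctional protein and lie head to head on mouse chromosome 5. In the GRCm38.p6 annotation, Hadha ends at base 30154980 on the minus strand and Hadhb begins at base 30155253 on the plus strand, so that 272 bases separate their starts and the upstream windows of the pair are largely the same DNA. The window of 250 bases before the Hadhb start (RefSeq, GRCm38.p6, chr5:30155003-30155252, plus strand, all in lower case) is shown because one stretch serves as the upstream region of both subunits.
Hadhb: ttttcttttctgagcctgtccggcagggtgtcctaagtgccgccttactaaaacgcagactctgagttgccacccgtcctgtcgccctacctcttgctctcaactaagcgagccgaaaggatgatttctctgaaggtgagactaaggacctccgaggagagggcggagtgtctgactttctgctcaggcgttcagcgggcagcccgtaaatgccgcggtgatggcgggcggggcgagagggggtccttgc
Hadha was at 48.0 CPM without ISO and 47.6 with it, and Hadhb at 34.7 and 35.2 CPM. The log2 ratios of ISO over PBS were -0.01 (-0.12 to 0.10) for Hadha and 0.02 (-0.11 to 0.15) for Hadhb. The number of Hadha UMIs per Hadhb UMI was 1.38 without and 1.35 with ISO, so the subunits kept their proportion. Hadhb was above its PBS level in 4 of 7 clusters, with an interval above 0 in the azurophil-granule cluster described below (0.30, 0.02 to 0.58).

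Etfa, which encodes the α subunit of the electron transfer flavoprotein that accepts the electrons of all these dehydrogenases, was lower with ISO. Its window of 250 bases before the start (RefSeq, GRCm38.p6, chr9:55512244-55512493, minus strand) is shown because it belongs to the enzyme gene whose ISO ratio had its whole interval below 0.
Etfa: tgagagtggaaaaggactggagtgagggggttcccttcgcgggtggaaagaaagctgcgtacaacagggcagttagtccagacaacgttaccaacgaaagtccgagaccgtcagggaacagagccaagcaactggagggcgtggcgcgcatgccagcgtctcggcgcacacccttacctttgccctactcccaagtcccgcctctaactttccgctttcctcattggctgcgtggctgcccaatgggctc
Etfa was at 83.7 CPM in WT+PBS and 73.1 in WT+ISO, a 0.873-fold level (log2 -0.20, -0.28 to -0.11). Within clusters, its ratio was lower with an interval below 0 in the macrophage-like cluster described below (-0.32) and in an unnamed cluster led by Gpnmb and Acod1 (-0.47), and in no other of 7 clusters. With each cluster held at the same weight in every library, the Etfa ratio was -0.16. The transcript of the partner subunit Etfb went the other way in the whole WT libraries. It was at 287 CPM in WT+PBS and 309 in WT+ISO (log2 0.11, 0.06 to 0.15). Of the clusters described below, the specific-granule one had Etfb at -0.93 (log2) against the azurophil-granule one (edgeR adjusted p = 9.25e-13). The azurophil-granule cluster held 16.6% of the UMIs of WT+PBS and 24.5% of those of WT+ISO. The part of the cell mixture in the Etfb ratio was not tested.

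Ppargc1b had the fewest UMIs of the 10 genes and the ISO ratio farthest from 0. It was at 6.19 CPM in WT+PBS (151 UMIs) and 4.25 in WT+ISO (125 UMIs), a 0.687-fold level (log2 -0.54, -0.90 to -0.19). Of its 518 UMIs over the 4 libraries, 441 (85.1%) came from 2 clusters, one of them macrophage-like, and the macrophage-like cluster made up 19.3% of the UMIs of WT+PBS and 9.35% of those of WT+ISO. At fixed cluster weights the ISO ratio of Ppargc1b was -0.19, and no gene of the 10 then passed 1.2-fold. Within the macrophage-like cluster it was 0.14 and within the other, unnamed cluster led by Lypd6b and Matn2 -0.41, with intervals that included 0. In sums over a whole library, fewer cells of a type and less RNA per cell cannot be told apart.

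**Figure D2:**
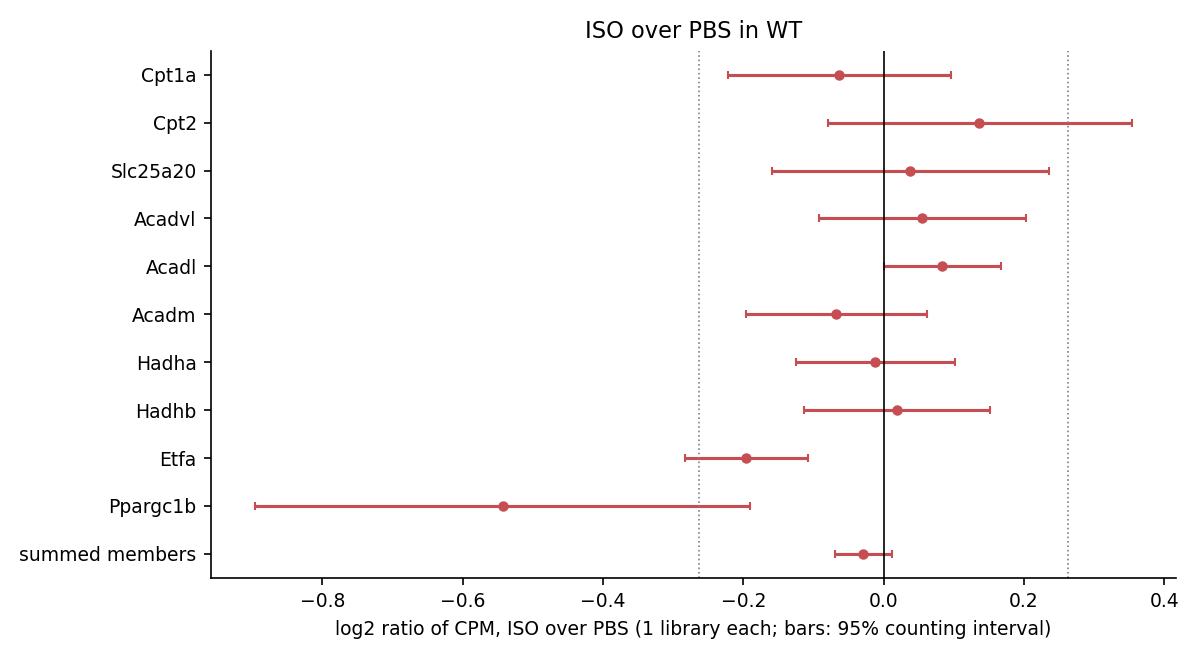
Log2 ratio of ISO over PBS in WT for each of the 10 genes and for their sum, with 95% counting intervals, the solid line at 0 marking no difference and dotted lines marking 1.2-fold. Etfa and Ppargc1b lie below 0, and Ppargc1b alone lies past the dotted line.

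By intervals, 1 gene lay above 0 with ISO (Acadl) and 2 below (Etfa and Ppargc1b). The share of all tested genes with such intervals was not counted, so these counts have no background beside them. The cell mixture also differed between WT+PBS and WT+ISO. Macrophage-like cells made up 13.3% of WT+PBS cells and 6.85% of WT+ISO cells, mature neutrophil-like cells 22.8% and 30.6%, and azurophil-granule cells 7.56% and 12.5%. Of the fixed marker lists, the macrophage genes (6 of 6 detected) summed to 143 CPM without and 61.1 with ISO, the dendritic cell genes (7 of 7) to 947 and 318 CPM, and the eosinophil genes (5 of 5) to 56.5 and 3.03 CPM. The azurophil-granule genes (5 of 5) summed to 4162 and 5440 CPM, the specific-granule genes (5 of 5) to 14610.4 and 21271, the mature neutrophil genes (5 of 5) to 469 and 452 and the monocyte genes (5 of 5) to 1641 and 1519. The lists for mast cells or basophils (Fcer1a at 0), B cells, T or NK cells and erythroid cells (Hba-a1, Hba-a2 and Hbb-bs at 0) stayed at or below 51.3 CPM. Beyond the fixed-weight values given above, the part of these mixtures in the members' levels was not tested.

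Across cell types the same 10 genes differed far more than across treatments. The cells were grouped into 8 clusters without use of the 10 genes or of the other pathway genes counted here. From the fixed markers, cluster 0 (2545 cells, led by Retnlg and Ly6g) was mature neutrophil-like, cluster 3 (1399 cells, Mrc1 and C1qb) macrophage-like and cluster 7 (77 cells, Ccr7 and Fscn1) dendritic cell-like. Cluster 4, with 748 cells led by Ncam1 and Camp, had the specific-granule markers, and cluster 5, with 693 cells led by Mpo and Ctsg, had those of neutrophil progenitors with azurophil granules. Cluster 1 (1982 cells, Gpnmb and Acod1), cluster 2 (1411 cells, Lypd6b and Matn2) and cluster 6 (448 cells, Stfa3 and Cstdc5) stayed unnamed. Cluster 0 also had Ltf, on the specific-granule list, among its 10 leading genes. The neutrophil names depended on the clustering. At a resolution of 0.6, 1063 cells were named mature neutrophil-like and clusters of 1702 (led by Ltf) and 756 cells specific-granule. With 30 neighbours these were 1047 cells and clusters of 1748 (led by Ltf) and 1189 cells. Whether cluster 0 mixed both kinds of cells was not tested. The summed level of the 10 genes, as the mean over 4 libraries, was highest in cluster 2 (464 CPM) and lowest in the mature neutrophil-like cluster (238 CPM), a 1.95-fold range, and these 2 clusters held the top and bottom place in 4 of 4 libraries. Between them stood the macrophage-like (407 CPM), dendritic cell-like (396), azurophil-granule (382), Stfa3 (363), specific-granule (348) and Gpnmb (286) clusters. The ranges over libraries did not overlap between cluster 2 (440.4 to 488) and the macrophage-like cluster (390.4 to 415.2), or between the Gpnmb cluster (263 to 297), the mature neutrophil-like cluster (224 to 261) and the rest. Other neighbours in this order overlapped: the macrophage-like with the azurophil-granule, the azurophil-granule with the Stfa3 and the Stfa3 with the specific-granule cluster, while the dendritic cell-like cluster (306 to 458) overlapped all of these and cluster 2.

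**Figure D3:**
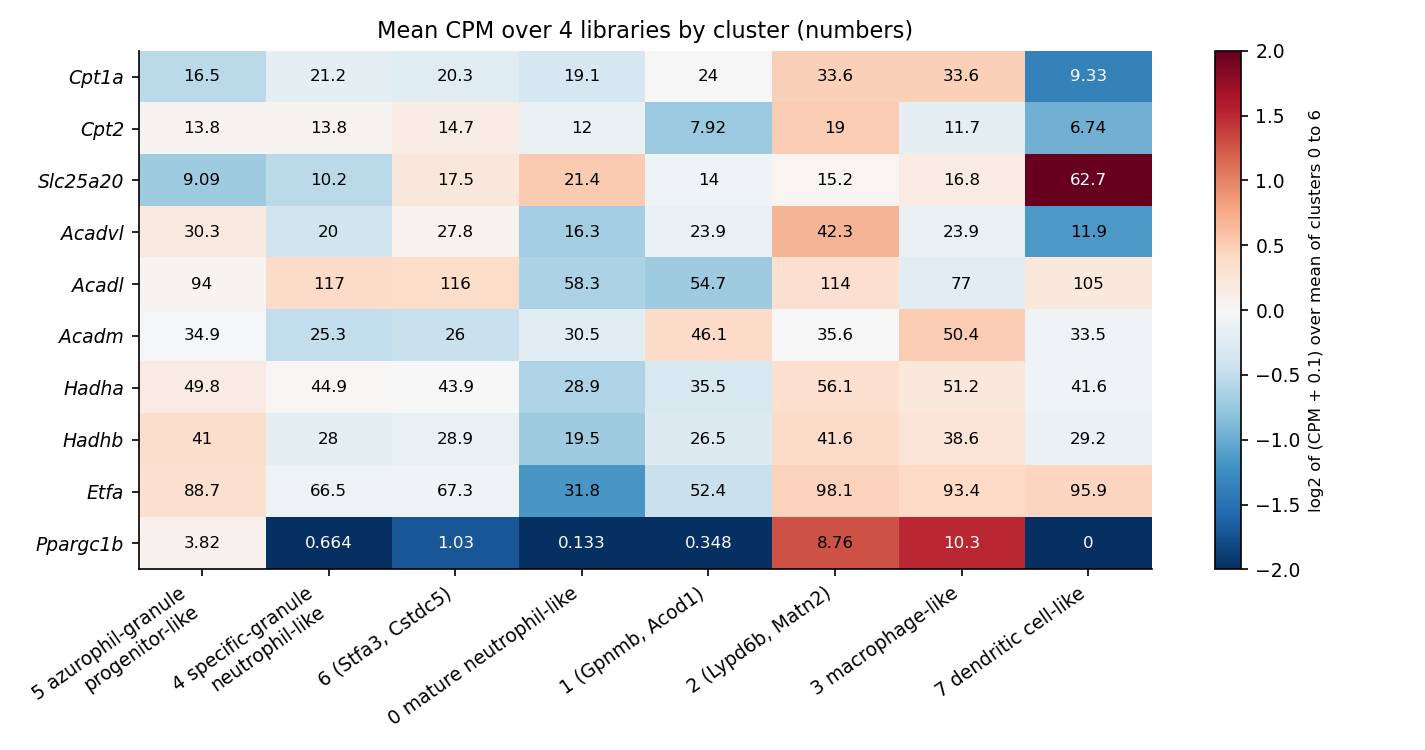
Mean CPM over 4 libraries of the 10 genes (rows) in each cluster (columns), printed in the cells and coloured by its log2 ratio over the gene's mean across clusters 0 to 6 (pseudocount 0.1 CPM, scale ending at 2 in either direction). Ppargc1b is above its mean in clusters 2 and 3, Slc25a20 stands out in cluster 7, and cluster 0 is below the mean for most enzymes.

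CPM within a cluster depends on what else the cells transcribe, so the counts per cell were set beside it. A cell carried 1.31 UMIs of the 10 genes on average in the mature neutrophil-like cluster and 1.19 in cluster 1, against 4.38 in the specific-granule, 5.97 in the macrophage-like, 8.58 in cluster 2 and 9.18 in the azurophil-granule cluster. The 20 most abundant genes of a cluster took 43.8% of UMIs in the mature neutrophil-like cluster, 35.6% in the specific-granule, 19.98% in the azurophil-granule and 15.2% in the macrophage-like cluster. The mature neutrophil-like cluster was thus low per cell as well as in CPM. Per cell, each of the 10 genes was lower in the specific-granule and mature neutrophil-like clusters than in the azurophil-granule cluster, so a higher CPM there is a larger share of fewer UMIs.

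The enzymes did not all follow the sum. Over the 28 library-by-cluster sums of the 7 larger clusters, levels were taken as log2(CPM + 1). On this scale, each gene was correlated (Pearson) with the summed CPM of the other 9. The correlation was 0.94 for Hadha, 0.88 for Etfa, 0.82 for Hadhb, 0.80 for Ppargc1b and 0.77 for Acadvl. It was 0.59 for Cpt2, 0.42 for Acadl, 0.41 for Cpt1a, 0.007 for Acadm and -0.35 for Slc25a20. Of the 45 pairs, Hadha with Etfa was the most alike (0.94), Hadha with Hadhb stood at 0.82, and Acadl with Acadm was the least alike (-0.51). These points share libraries and cell depth, so the values are descriptions. They set a group formed by the trifunctional protein, Etfa, Acadvl and Ppargc1b apart from the carrier Slc25a20 and from Acadm.

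Cpt1a was highest in cluster 2 and in the macrophage-like cluster, with a mean of 33.6 CPM in each, and lower in the azurophil-granule cluster (16.5 CPM). In the macrophage-like cluster it was at 27.4 CPM in WT+PBS, 35.7 in WT+ISO and 34.0 to 37.2 in the further libraries, and in the azurophil-granule cluster at 17.0, 18.9 and 14.9 to 15.2, so the clusters did not overlap. Cpt2 was highest in cluster 2 (15.01 to 21.8 CPM) and low in cluster 1 (5.71 to 9.55 CPM).

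The carrier Slc25a20 ran opposite to most of the others: among the neutrophil clusters its CPM was highest in the mature neutrophil-like cluster, where the sum was lowest. Its window of 250 bases before the start (RefSeq, GRCm38.p6, chr9:108661886-108662135, plus strand) is shown because this gene departed most from the other enzymes.
Slc25a20: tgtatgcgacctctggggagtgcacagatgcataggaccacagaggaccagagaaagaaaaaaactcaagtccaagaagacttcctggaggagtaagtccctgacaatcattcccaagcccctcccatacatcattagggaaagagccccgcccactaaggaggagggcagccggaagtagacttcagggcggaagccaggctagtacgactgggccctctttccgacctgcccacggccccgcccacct
Slc25a20 was at 23.7 CPM in WT+PBS, 22.4 in WT+ISO and 19.0 to 20.7 in the further libraries in the mature neutrophil-like cluster. In the azurophil-granule cluster it was at 8.40, 10.1 and 7.98 to 9.85 CPM, and the clusters were far apart. Per cell the order was the other way, with 0.117 UMIs in the mature neutrophil-like and 0.227 in the azurophil-granule cluster. Its highest CPM was in the dendritic cell-like cluster, at 68.0, 96.4 and 26.1 to 60.2 CPM, from 59 UMIs in 25 of 77 cells and at most 6 UMIs in a cell. Pooled over libraries, the dendritic cell-like cluster was 2.84-fold above the mature neutrophil-like one (log2 1.51, 1.08 to 1.91), while in 1 of the further libraries alone the interval included 0 (0.46, -0.91 to 1.58).

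**Figure D4:**
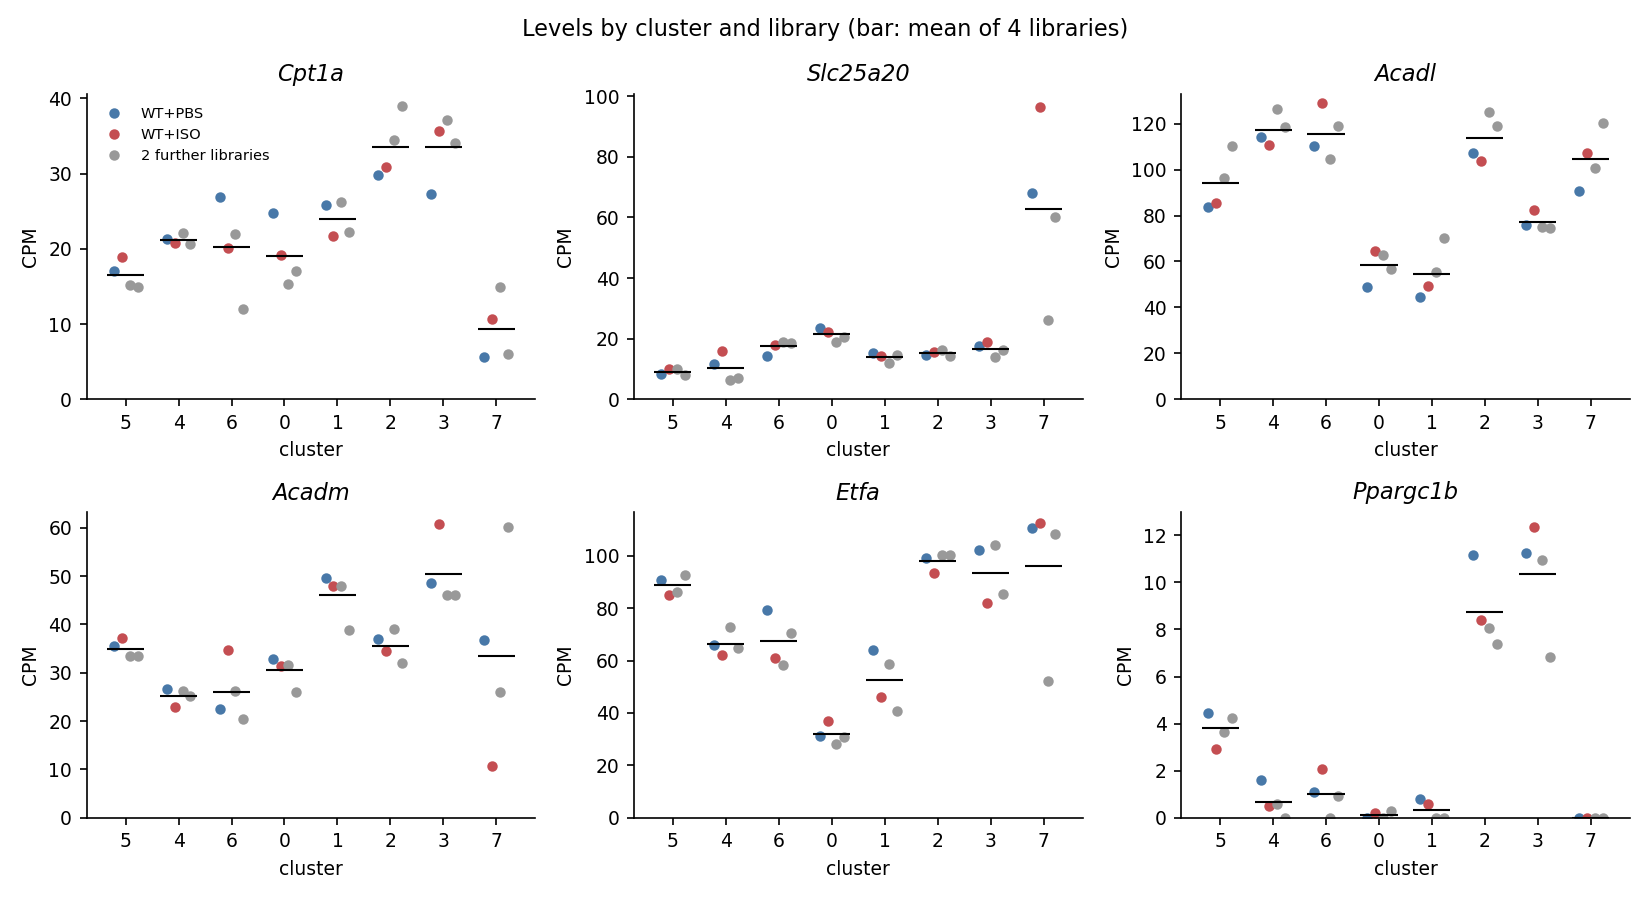
CPM of 6 of the genes in each cluster (columns) and library (points, with the mean of the 4 as a bar), on axes starting at 0. Etfa falls from clusters 2, 3 and 5 to cluster 0, where it averages 31.8 CPM, Slc25a20 is high in the 77 cells of cluster 7, and Ppargc1b is near 0 outside clusters 2, 3 and 5.

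Acadl and Acadm, which act on neighbouring chain lengths, had different distributions. Acadl averaged 117 CPM in the specific-granule cluster (111 to 126), 116 in cluster 6 and 114 in cluster 2 (104 to 125), with overlapping ranges. It was low in cluster 1 (54.7) and in the mature neutrophil-like cluster (58.3). Acadm was highest in the macrophage-like cluster (50.4 CPM, 46.0 to 60.8) and in cluster 1 (46.1), and lowest in the specific-granule cluster (25.3, 23.0 to 26.7). By these means the specific-granule cluster was at the top for Acadl and at the bottom for Acadm, but it held each place in 2 of 4 libraries and its range overlapped that of cluster 6 in both. Acadvl was highest in cluster 2 in 4 of 4 libraries (39.1 to 46.4 CPM) and averaged 16.3 CPM in the mature neutrophil-like cluster.

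Etfa averaged 98.1 CPM in cluster 2, 93.4 in the macrophage-like and 88.7 in the azurophil-granule cluster, and 31.8 in the mature neutrophil-like cluster (28.0 to 37.1). Hadha averaged 56.1 CPM in cluster 2 and 28.9 in the mature neutrophil-like cluster, and Hadhb 41.6 and 19.5. The number of Hadha UMIs per Hadhb UMI ran from 1.21 in the azurophil-granule to 1.54 in the specific-granule cluster.

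Ppargc1b was detected mainly in the macrophage-like cluster (10.3 CPM, 6.85 to 12.4) and in cluster 2 (8.76 CPM, 7.39 to 11.2), with 3.82 CPM in the azurophil-granule cluster. It averaged 0.664 CPM in the specific-granule and 0.133 in the mature neutrophil-like cluster, the last from 2 UMIs in all. The ratio of macrophage-like over mature neutrophil-like cells, 210 against 2 UMIs, was 71.5-fold with a counting interval from 19.5 to 594. In the dendritic cell-like cluster it had 0 UMIs. With 3 UMIs taken as the limit for a count of 0, this allows up to 3.08 CPM at that cluster's depth.

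Of the cluster comparisons, 3 were tested on UMI counts summed per library and cluster with the library as a block, using edgeR's quasi-likelihood test with Benjamini-Hochberg adjustment over 11091 genes, with all clusters of at least 20 cells in every library. The replicates of this test are the 4 libraries, which differ in treatment and genotype and were captured from one pool of suspensions. Because the cells of a cluster share their library, the p-values measure only how steadily clusters differ between these libraries. Against the azurophil-granule cluster, the specific-granule cluster had 3 of the 10 genes higher, where 31.6% of all genes were, and 5 lower, where 29.9% of genes were. The mature neutrophil-like cluster had 4 higher (all genes 40%) and 5 lower (40.4%), and the macrophage-like cluster 4 higher (39.7%) and 4 lower (36.6%). The median log2 ratio of the 10 was -0.10, -0.23 and -0.07 in that order, against 0.03, 0.007 and 0.03 for all genes. With so many genes called, the number of members called was near the background, and the content lies in which genes moved which way.

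From azurophil-granule to mature neutrophil-like cells, the largest rise in the share of UMIs was that of Slc25a20, by 1.71 ± 0.16 (SE) on the log2 scale or 3.28-fold (edgeR adjusted p = 2.41e-12). Cpt1a rose as well (0.64, edgeR adjusted p = 0.000315), and both were called under each of the 10 alternative settings. Etfa fell by 0.95 ± 0.10 (edgeR adjusted p = 7.18e-11), Hadhb by 0.61 (1.09e-05) and Ppargc1b to a level of few UMIs (60 against 2, a 25.1-fold ratio with a counting interval from 6.65 to 212), and these 3 also held under each setting. These ratios compare shares of UMIs. Cpt1a had 0.103 UMIs per mature neutrophil-like cell against 0.414 per azurophil-granule cell, and so was lower per cell. Hadha (-0.30), Acadvl (-0.40), Acadm (0.30) and Cpt2 (0.32, edgeR adjusted p = 0.0488) passed the test as well. Hadha was called in 9 of the 10 settings, Acadvl in 9, Acadm in 6 and Cpt2 in 2. Of these, Hadha lost its call without both further libraries (edgeR adjusted p = 0.0597), Acadm had an edgeR adjusted p of up to 0.152, Acadvl lost its call without 1 of the further libraries (-0.27, edgeR adjusted p = 0.0554), and Cpt2 without WT+ISO, WT+PBS or 1 of the further libraries (0.14 to 0.32) and reversed under other cluster settings. Acadl did not pass with all libraries (-0.16, edgeR adjusted p = 0.115) and did without WT+ISO (-0.27, edgeR adjusted p = 0.0199). Over the 10 settings Acadl was called lower in 4, with ratios from -0.85 to -0.11.

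In the specific-granule cluster, Acadl rose by 0.53 ± 0.09 (SE, log2, edgeR adjusted p = 3.42e-06) and Ppargc1b fell (60 UMIs in the azurophil-granule against 6 in the specific-granule cluster, a 5.67-fold ratio, 2.46 to 16.1), both under each of the 10 settings. Cpt1a rose by 0.51 and Slc25a20 by 0.47, and Acadm (-0.31), Acadvl (-0.44), Hadhb (-0.35) and Etfa (-0.22) fell, with Cpt2 (0.17) and Hadha (0.02) not called. The count of called genes went from 8 to 5 without WT+ISO and to 5 without WT+PBS, since Slc25a20, Acadm and Etfa lost their calls in each case. Slc25a20 was at 0.09 without WT+ISO (edgeR adjusted p = 0.801) and 0.41 without WT+PBS (0.143). Hadhb lost its call without 1 of the further libraries (-0.27, edgeR adjusted p = 0.0930). Over all 10 settings, Cpt1a and Acadvl were called in 9, Hadhb in 8, Slc25a20 in 7, and Acadm and Etfa in 5 each. Without both further libraries, a setting chosen after seeing the data, 5 were called here, 7 in the mature neutrophil-like and 7 in the macrophage-like cluster.

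In the macrophage-like cluster, Ppargc1b rose 2.61-fold (log2 1.38 ± 0.24 SE, edgeR adjusted p = 2.23e-06), Cpt1a by 0.84 (7.27e-07), Slc25a20 by 0.71 (0.000156) and Acadm by 0.37 (0.000512) over the azurophil-granule cluster, while Acadl fell by 0.41 (5.50e-05), all under each setting. Per cell, Cpt1a (0.498 UMIs against 0.414) and Ppargc1b (210 UMIs in 1399 cells against 60 in 693) were higher than in the azurophil-granule cluster, Slc25a20 was close (0.236 against 0.227) and Acadm was lower (0.713 against 0.857). Acadvl (-0.49), Cpt2 (-0.36) and Hadhb (-0.25) were also lower, and Hadha (-0.10) and Etfa (-0.05) were not called. Hadhb lost its call without WT+ISO, WT+PBS or 1 of the further libraries (-0.26 to -0.17) and Cpt2 without 1 of the further libraries or WT+PBS (-0.32 and -0.31). Over all 10 alternative settings, Acadvl was called in 9, Hadhb in 5 and Cpt2 in 4.

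**Figure D5:**
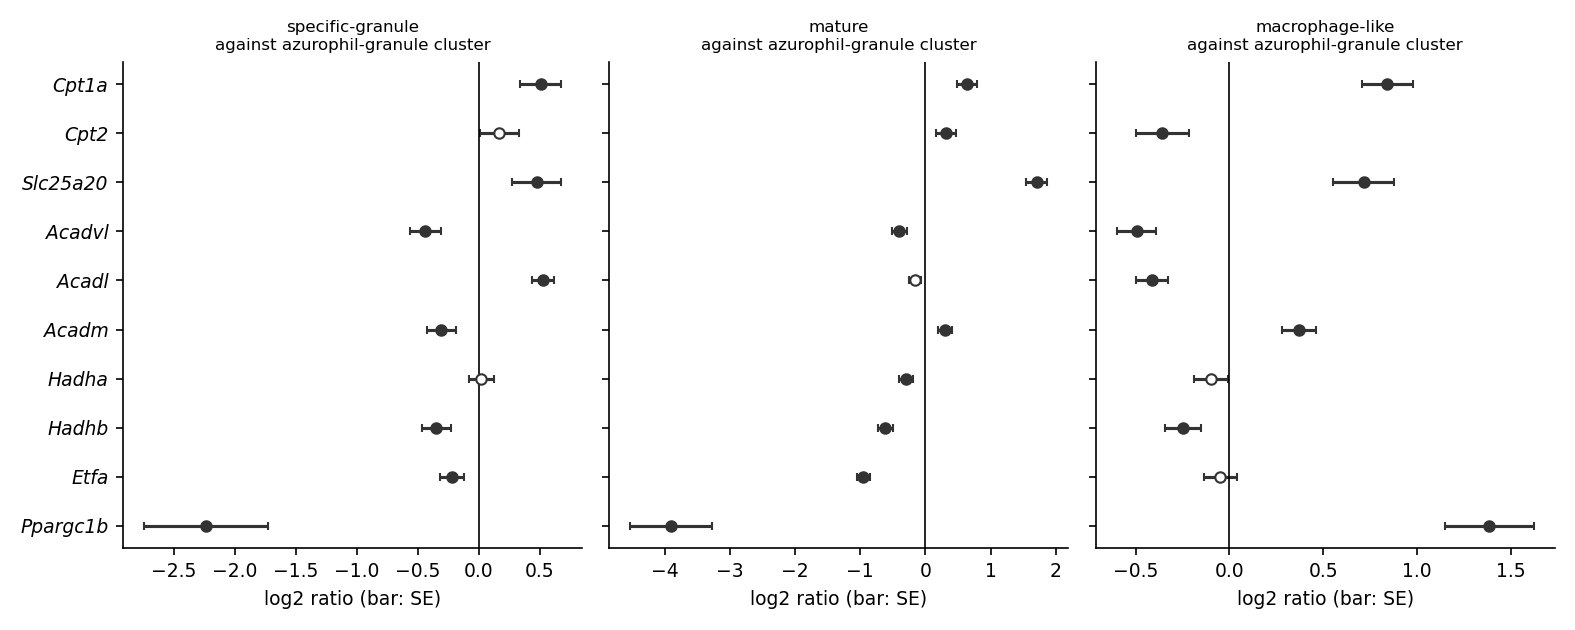
Log2 ratio over the azurophil-granule progenitor-like cluster for each of the 10 genes in the specific-granule, mature neutrophil-like and macrophage-like clusters, with standard errors as bars (edgeR, 4 libraries), filled points marking calls at an adjusted p under 0.05. Slc25a20 and Cpt1a lie above 0 in all 3 comparisons, and Ppargc1b is above 0 in the macrophage-like cluster alone. The fitted ratio of Ppargc1b in the mature neutrophil-like cluster rests on 2 UMIs there.

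Other parts of fatty acid metabolism, counted from lists of 10 to 19 genes, were set beside the members. Of all genes, 40% were called higher and 40.4% lower in the mature neutrophil-like than in the azurophil-granule cluster. Counts near these shares are the background. The ratios compare shares of UMIs. A cell held 5487 UMIs on average in the mature neutrophil-like and 24087 in the azurophil-granule cluster. UMIs per cell of the listed genes were not counted, so a higher share need not mean more UMIs per cell. In the mature neutrophil-like cluster, 13 of 18 tested further genes of mitochondrial β-oxidation were lower than in the azurophil-granule cluster and 2 were higher (median log2 ratio -0.85), and 14 of 14 genes of mitochondrial housekeeping were lower (median -1.88). The reductase Decr1, which handles unsaturated chains, fell by 2.33 (edgeR adjusted p = 3.08e-12), the thiolase Acaa2 by 0.64 (1.27e-07) and the mitochondrial chaperone Hspd1 by 4.07 (1.41e-26). The members' median of -0.23 in the same comparison was nearer 0 than either. Of 11 peroxisomal β-oxidation genes, 7 were higher and 1 lower (median 0.55), with the thiolase Acaa1a up by 0.77 and the transporter Abcd2 by 0.85. Of 12 regulators, 8 were higher and 2 lower, with the nuclear receptors Rxra up by 3.64 and Ppard by 1.98 (edgeR adjusted p = 5.55e-11 and 2.86e-19), as shares of UMIs opposite in direction to Ppargc1b. Of fatty acid synthesis, 8 of 12 were lower and 2 higher, with the synthase Fasn down to a log2 ratio of -1.83. Of 9 genes of activation and entry, 3 were higher and 5 lower, and of 5 PPAR targets outside oxidation 2 were higher and 1 lower.

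Of all genes, 31.6% were called higher and 29.9% lower in the specific-granule cluster, and 39.7% and 36.6% in the macrophage-like cluster. These comparisons are again of shares of UMIs, with the same numbers of tested genes per list. The specific-granule cluster gave counts in the same order of lists: 1 higher and 12 lower of further mitochondrial β-oxidation, 0 and 14 of housekeeping, 5 and 2 of peroxisomal oxidation, 6 and 2 of regulators, 1 and 8 of synthesis, 3 and 2 of activation and entry, and 2 and 2 of PPAR targets. In the macrophage-like cluster, further mitochondrial β-oxidation had 3 higher and 8 lower and housekeeping 0 higher and 13 lower, but synthesis had 8 higher and 3 lower and activation and entry 4 higher and 2 lower. The fatty acid transporter Slc27a1 was 3.03 higher there on the log2 scale (edgeR adjusted p = 1.49e-13) and the mitochondrial uncoupling protein family gene Ucp2 1.31 higher (1.60e-16), and the brain-type carnitine palmitoyltransferase Cpt1c was higher as well (edgeR adjusted p = 3.09e-09). Peroxisomal oxidation had 6 higher and 3 lower with Acaa1a up by 0.95 and Scp2 down to -1.23, regulators 6 and 2, and PPAR targets 3 and 0.

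With ISO the same lists moved by small amounts. These are ratios of whole libraries, between which the cell mixture differed. The azurophil-granule cluster held 16.6% of the UMIs of WT+PBS and 24.5% of those of WT+ISO, and the macrophage-like cluster 19.3% and 9.35%. No fixed-weight values are given for the lists, and the part of the mixture in their ratios was not tested. Further mitochondrial β-oxidation summed to a log2 ratio of 0.11 (0.08 to 0.14). Of its 18 tested genes, 3 were over 1.2-fold higher, where 8.14% of all tested genes were, and 1 lower, where 17.4% were. Here and in the lists that follow, the genes named were picked for the largest absolute ISO ratios of their list. Their intervals were not adjusted for that choice. Decr1 was at 0.38 (0.13 to 0.63) and Acaa2 at 0.33 (0.22 to 0.43). The lower gene was Cpt1c, at -0.45 with an interval that included 0 (-1.01 to 0.11). Activation and entry gave -0.07, with 4 of 9 genes lower (17.4% of all tested genes) and 0 higher (8.14%). Slc27a1 was at -0.44 (-0.78 to -0.11). The carnitine transporter Slc22a5 was at -0.35 from 68 and 72 UMIs, with an interval that included 0 (-0.85 to 0.15). Peroxisomal oxidation summed to 0.09 with 0 genes past the fold, but the median of its genes was -0.04. Its gene Scp2 held 237 of the list's 507 CPM in WT+PBS and was at 0.21. The regulators gave -0.01 with 0 higher and 1 lower. The PPAR targets summed to -0.13, with 1 of 5 higher and 2 lower, but their median was 0.12. Among them, Ucp2 held 443 of the list's 660 CPM in WT+PBS and was at -0.28. Synthesis gave 0.05, with 3 of 12 genes higher (Elovl6 at 0.40, Fasn at 0.38 and Elovl1 at 0.30) and 0 lower. Housekeeping gave 0.09 with 0 genes past the fold.

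The genes whose profile was most like that of the summed members were sought among 5749 genes over the same 28 library-by-cluster sums. Levels were again taken as log2(CPM + 1). The 5 most alike were Nap1l1, a histone chaperone (Pearson r = 0.96), Cltb, a clathrin light chain (0.95), Sept11, a septin (0.94), Selenoh, a selenoprotein (0.94), and Dbi, the acyl-CoA binding protein (0.93).

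Promoter windows were searched for 4 short patterns on both strands, since the members are known as targets of nuclear receptors. The window of Acadvl (RefSeq, GRCm38.p6, chr11:70015429-70015678, minus strand) is printed as the example of a match, with the 6 matching letters in capitals.
Acadvl: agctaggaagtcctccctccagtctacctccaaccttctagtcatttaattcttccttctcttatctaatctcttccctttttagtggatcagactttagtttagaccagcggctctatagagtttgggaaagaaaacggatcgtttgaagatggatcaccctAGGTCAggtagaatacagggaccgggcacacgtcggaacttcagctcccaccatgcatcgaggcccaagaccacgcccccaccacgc
Of the members, 9 were searched. The half-site AGGTCA, the core bound by many nuclear receptors, lay in 3 of 9 windows: those of Acadvl (87 bases before the start), Acadm (249) and Cpt1a. The Cpt1a window (chr19:3323051-3323300) lies inside the gene's annotated span, which begins at base 3322326, so it stands before a later start than the gene's first. It was present in 14.0% of all 32851 RefSeq windows of the same length. The cAMP response element TGACGTCA (1.55% of windows), the estrogen-related receptor element TCAAGGTCA (0.387%) and a direct repeat of AGGTCA spaced by 1 base (0.033%) were not found in these 9 windows.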

How the data were processed

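Live CD11b+ MDSCs from 4 cultures, 1 library each, were profiled by 10x single-cell RNA-seq. The suspensions were tagged and pooled before capture, per the labels. The values deposited by the authors are raw UMI counts. The file headers name Cell Ranger 7.0.0, the submitters' processing notes Cell Ranger 6.0.0, Seurat and mm10. Groups were taken from the titles; the treatment field gives isoproterenol for all 4 samples, which conflicts with the titles and the study's methods.

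A barcode was kept if it had 200 or more genes and no more than 10% mitochondrial UMIs. The 12 multiplexing tags, of which 4 were in use, were left out. Scrublet (expected rate 6%) called 17 of 9303 cells doublets (0.183%). The main tag of a library was the highest in 2094 of 2103 barcodes of 1 further library and in every barcode of the others. Whether doublets were few or missed by the caller was not tested, and called cells were kept. Counts scaled to 10000 per cell were log-transformed and clustered without the members and the 7 other gene lists (scanpy 1.11.5, leidenalg 0.10.2, 2000 variable genes, 30 principal components, 15 neighbours, resolution 0.4, seed 0). Clusters were named by at least 3 detected markers of a class with at least 1 among the 10 leading genes.

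The members and lists were chosen with earlier results of these data known. Named besides the members were at most the 3 genes of each list with the largest absolute ISO ratio in WT, and the 5 most similar profiles. Etfb was added as the partner of Etfa. Log2 ratios have exact conditional binomial intervals, and genes with at least 200 UMIs over the 4 libraries were counted. Sums per library and cluster (at least 20 cells in every library) were tested with edgeR 4.0.16 in R 4.3.3 (quasi-likelihood, TMM, library as block, false discovery rate 0.05). ISO was compared in WT, and a group comparison of the 2 further libraries is not reported here. The procedures were tested on simulated data. Alternatives were other cell filters, scalings, cell and cluster weights, doublet removal, DESeq2 1.42.0, median-of-ratios normalization, no filter on genes, other cluster settings and leaving out each library. Upstream sequences came from RefSeq (GRCm38.p6), positions from its annotation, and protein sequences were not used here. Depth limits the precision: Ppargc1b rested on 151 and 125 UMIs in the WT libraries.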

Additional observations from a re-analysis of the deposited data

How the results depend on the processing

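No paired analysis was possible because the 4 groups hold a single library each, all with the same replicate number. The summed ISO ratio in WT changed sign from -0.03 to 0.014 without the 20 most abundant genes and to 0.019 with median-of-ratios size factors. The number of members past 1.2-fold went from 1 to 0 in WT at fixed cluster weights. In the cluster tests, leaving out 1 library gave 5 to 8 called members for specific-granule, 8 to 9 for mature and 6 to 7 for macrophage-like cells, 5 were called for specific-granule cells without the 2 further libraries (chosen after seeing the data), and 5 for macrophage-like cells with 30 neighbours. Acadm in specific-granule cells reversed to 0.026 at resolution 0.6 and to 0.023 with 30 neighbours, and Cpt2 in mature cells to -0.27 and -0.20, none of these called. Clusters of the same name were summed, so these settings compared other cells. The specific-granule cells came from clusters of 1702 and 756 cells or of 1748 and 1189, against 748 in the main run. The mature cells were 1063 or 1047, against 2545. The cause of the changes in values was not tested. Over all alternatives but the one chosen after seeing the data, 36 values of sums and counts stayed near the reported value and 6 did not, and of the values of single genes 295 stayed, 33 lost a call, 5 gained one, 4 reversed and 3 moved. Under every one of 10 settings, 2 of 8 calls held in specific-granule, 5 of 9 in mature and 5 of 8 in macrophage-like cells. Limits are 1 library per group, 77 dendritic cell-like cells, few UMIs of Ppargc1b and doublets that were not removed.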
